A study of Mus musculus with 15 samples.

Results

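The interaction of diet and microbiota was read from 12 of the 15 mouse livers of the series, which were chosen by their labels and not by any measured value. They came from 4 groups of 3 male C57BL/6J mice killed at 19 weeks of age. Germ-free (GF) mice had never carried microbes, and conventionally raised (ConvR) mice had acquired a microbiota from birth. From 3 weeks of age, mice of either kind ate a breeder chow with 23.7% of its energy as fat, 53.2% as carbohydrate and 23.1% as protein, or one rich in fat and sucrose (HF/HS) with 44.6% as fat, 40.6% as carbohydrate and 14.8% as protein. Both diets had been irradiated and autoclaved. ConvR and GF mice lived in separate isolators and were caged by colonization status and diet, so that a cage or isolator and the group it held cannot be told apart. The other 3 livers, from GF mice on chow that had been colonized as adults, entered only the estimate of the spread between mice. The quantity of interest was a difference of differences on the log2 scale, ConvR minus GF on HF/HS less ConvR minus GF on chow. It is called the interaction here. A positive value means that the ConvR livers stood higher, relative to their GF counterparts, on HF/HS than on chow.

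The liver receives blood from the gut, and with it microbial products, metabolites made by microbes, bile acids that microbes have altered, and dietary fat and sugar. Hepatocytes answer cytokines released on microbial contact by making acute phase proteins, largely through the factors STAT3, C/EBP and NF-kB. They answer fatty acids through the nuclear receptor PPAR alpha, which drives fatty acid oxidation, and foreign compounds and bile acids through PXR, CAR and FXR. Diet and microbiota can therefore reach the same genes.

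Expected counts per library came, over all 15 libraries, to 14737578 to 21794811 over 20325 genes, and 12377 genes passed the filter on low counts. Levels are given as CPM, a gene's count relative to the scaled total of its library, for mice 1, 2 and 3 of a group in that order. Where groups of 3 are said to overlap or not, the share of all genes doing so is not given. Such remarks only describe the values. Pairs of livers of 1 group correlated at r = 0.968 to 0.992 across genes, and pairs from different groups at 0.948 to 0.985. The 16 of 17 hepatocyte markers that passed the filter summed to between 67200 and 148000 CPM in the 12 livers, lowest in ConvR chow mice 1 and 2. ConvR chow mice 1 and 2 stood apart by acute phase and neutrophil transcripts and GF chow mouse 1 by immediate early transcripts. Expression relative to the mean of all libraries also ran with gene length, at rank correlations of -0.451 to 0.058 in the chow livers and 0.104 to 0.38 in the HF/HS livers.

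No gene was called for the interaction. By edgeR's quasi-likelihood F test with Benjamini-Hochberg adjustment, 0 of 12377 genes (0.0%) had an adjusted p below 0.05, while 1573 genes (12.7%) had an unadjusted p below 0.05, of which 770 (6.22%) were higher and 803 (6.49%) lower. The lowest adjusted p was 0.0503 and was shared by 13 genes, 4 higher and 9 lower. DESeq2's Wald test called 109 genes (0.881%), 52 higher (0.42%) and 57 lower (0.461%), limma-voom called 0, and limma-voom with sample weights called 286 (2.31%), 138 higher (1.11%) and 148 lower (1.2%). Leaving out ConvR chow mouse 3 gave 436 calls (3.47%), 209 higher (1.66%) and 227 lower (1.81%), leaving out ConvR HF/HS mouse 3 gave 21, and leaving out any other of the 12 libraries gave 0. Interaction values below are therefore given for genes that were not called, and "p below 0.05" for a list means the unadjusted p. The shares of all genes that passed it, 6.22% higher and 6.49% lower, are the background for each such count.

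The difference between ConvR and GF livers was itself called for many genes on each diet. On chow, 584 genes (4.72%) were called, 316 higher (2.55%) and 268 lower (2.17%) in ConvR livers. On HF/HS, 200 genes (1.62%) were called, 109 higher (0.881%) and 91 lower (0.735%). These shares over all genes, for either diet, are the background for each count of called list members below. The chow count was 46 without ConvR chow mouse 2, 55 without ConvR chow mouse 1, 295, 338 and 362 without GF chow mouse 1, GF HF/HS mouse 3 and GF HF/HS mouse 2, and 1655 without ConvR chow mouse 3. Leaving out both ConvR chow mice 1 and 2 leaves mouse 3 as the only ConvR chow liver. Wherever that fit is named below, the ConvR chow level is that of 1 mouse. Its standard errors and counts draw their spread from the other groups alone. The HF/HS count was 16, 45 and 75 without GF HF/HS mice 2, 3 and 1, 66 and 126 without ConvR HF/HS mice 2 and 1, and 365 and 459 without ConvR chow mouse 3 and GF chow mouse 1. Across all genes the median absolute log2 fold change was 0.187 on chow, 0.147 on HF/HS and 0.205 for the interaction, and 463 genes (3.74%), 313 genes (2.53%) and 540 genes (4.36%) differed by 2-fold or more. Sizes set side by side in this way show no tested difference between the diets.

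**Figure D1:**
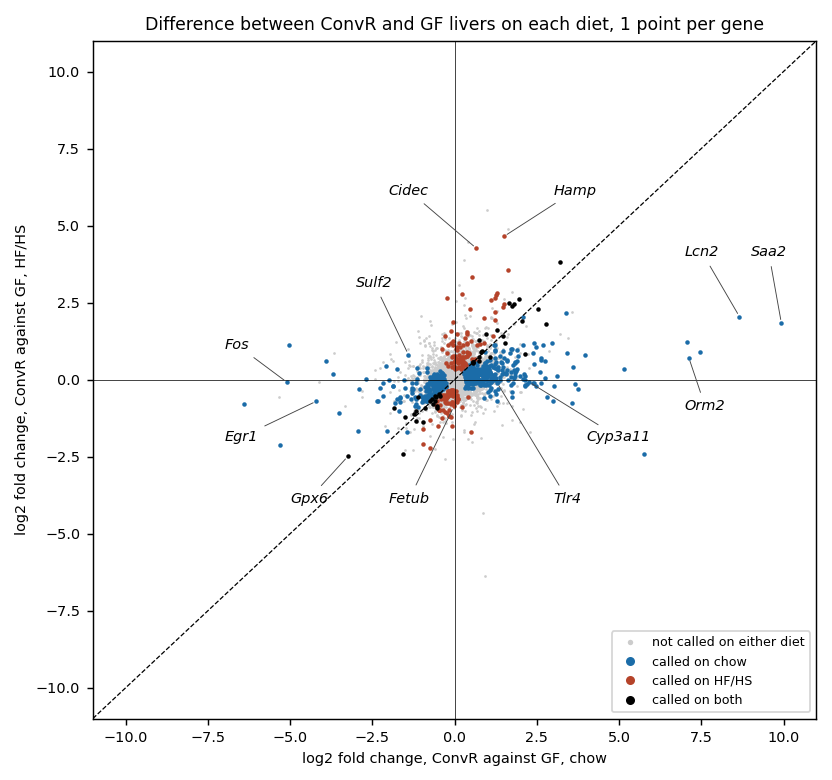
Log2 fold change of ConvR against GF livers on chow (x axis) and on HF/HS (y axis), 1 point per gene for 12377 genes, with the dashed line where both are equal and distance from it equal to the interaction up to a constant. Blue, red and black points were called on chow, on HF/HS and on both: Saa2, Lcn2 and Orm2 lie far to the right, Egr1 and Fos far to the left, and Hamp and Cidec at 4.65 and 4.26 on the y axis.

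The 8 genes with the smallest p among those with a positive interaction and a mean of at least 2 CPM were Sulf2, Ndrg1, Abcb4, Eepd1, Tmcc3, S100a10, Apoc2 and Tex264. Sulf2 encodes a sulfatase at the cell surface that removes sulfate groups from heparan sulfate, the glycan by which hepatocytes take up lipoprotein remnants. Its level was 11.3, 7.31 and 8.36 CPM in GF and 3.35, 2.59 and 4.16 CPM in ConvR livers on chow. On HF/HS it was 9.21, 11.1 and 13.7 CPM in GF and 22.9, 22.2 and 14.74 CPM in ConvR livers. ConvR livers thus lay below all GF livers on chow and above all of them on HF/HS. On chow Sulf2 fell by 1.41 on the log2 scale (SE 0.28, adjusted p = 0.0195), a call that was lost without GF chow mouse 1 (log2 fold change between -1.58 and -1.21 with any 1 library left out), ConvR chow mouse 1 or ConvR chow mouse 2. The HF/HS difference was 0.81 ± 0.24 (SE) and not called (adjusted p = 0.1105), and the interaction was 2.22 ± 0.37 (adjusted p = 0.0503).

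Ndrg1, a gene induced by low oxygen and by differentiation, had the same layout. It stood at 25.4, 29.1 and 29.2 CPM in GF and 14.96, 14.59 and 17.55 CPM in ConvR livers on chow, and at 12.3, 18.1 and 19.0 CPM in GF and 20.5, 23.5 and 19.9 CPM in ConvR livers on HF/HS. Again the ConvR livers were the lower 3 on chow and the higher 3 on HF/HS, although GF mouse 3 and ConvR mouse 3 on HF/HS lay close together. Ndrg1 fell on chow by 0.83 on the log2 scale (SE 0.15, adjusted p = 0.0133), a call lost without ConvR chow mouse 1 or 2 with a range of -0.92 to -0.78 over the 12 fits that left out 1 library. The HF/HS difference of 0.37 ± 0.15 was not called, and the interaction was 1.203 ± 0.21 (adjusted p = 0.0503). Eepd1, whose protein has been tied to cholesterol export, was also called lower on chow: it stood at 21.2, 21.7 and 21.0 CPM in GF against 14.3, 10.97 and 15.9 CPM in ConvR livers, and at 23.1, 20.6 and 22.4 against 25.6, 24.8 and 24.9 CPM on HF/HS. Its chow difference was -0.63 ± 0.11 (adjusted p = 0.0132), called in all 12 fits that left out 1 library, and its interaction 0.82 ± 0.16 (adjusted p = 0.0805).

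In Abcb4, Tmcc3 and Apoc2 the called difference lay on HF/HS instead. Abcb4 encodes the canalicular pump that moves phospholipid into bile. Its level was 258, 215 and 252 CPM in GF and 210, 175 and 215 CPM in ConvR livers on chow, and 246, 231 and 255 CPM in GF and 367, 355 and 337 CPM in ConvR livers on HF/HS. The 3 ConvR HF/HS livers were the highest of the 12. Abcb4 rose on HF/HS by 0.53 ± 0.10 on the log2 scale (adjusted p = 0.0175), with an interaction of 0.80 ± 0.14 (adjusted p = 0.0503). Apoc2 encodes the cofactor of lipoprotein lipase. It stood at 114, 122 and 127 CPM in GF and 117, 130 and 104 CPM in ConvR livers on chow, groups that overlapped, and at 221, 206 and 199 against 367, 402 and 284 CPM on HF/HS. It rose on HF/HS by 0.75 ± 0.12 (adjusted p = 0.00866), and its interaction was 0.80 ± 0.17 (adjusted p = 0.141). Tmcc3, a membrane protein of the endoplasmic reticulum, stood at 16.9, 17.02 and 17.6 against 14.2, 14.2 and 16.2 CPM on chow and at 15.7, 14.8 and 16.7 against 21.2, 22.02 and 20.7 CPM on HF/HS, where it rose by 0.44 ± 0.09 (adjusted p = 0.0282). These 3 HF/HS calls were lost without GF HF/HS mouse 2 or 3, those of Abcb4 and Tmcc3 also without GF HF/HS mouse 1 or ConvR HF/HS mouse 2, and that of Tmcc3 without ConvR HF/HS mouse 1. Over the 12 fits their log2 fold changes stayed between 0.49 and 0.56, 0.65 and 0.88, and 0.40 and 0.48 for Abcb4, Apoc2 and Tmcc3. S100a10, an annexin partner, and Tex264, a receptor for autophagy of the endoplasmic reticulum, were called on neither diet and had interactions of 0.82 ± 0.18 and 0.48 ± 0.11.

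**Figure D2:**
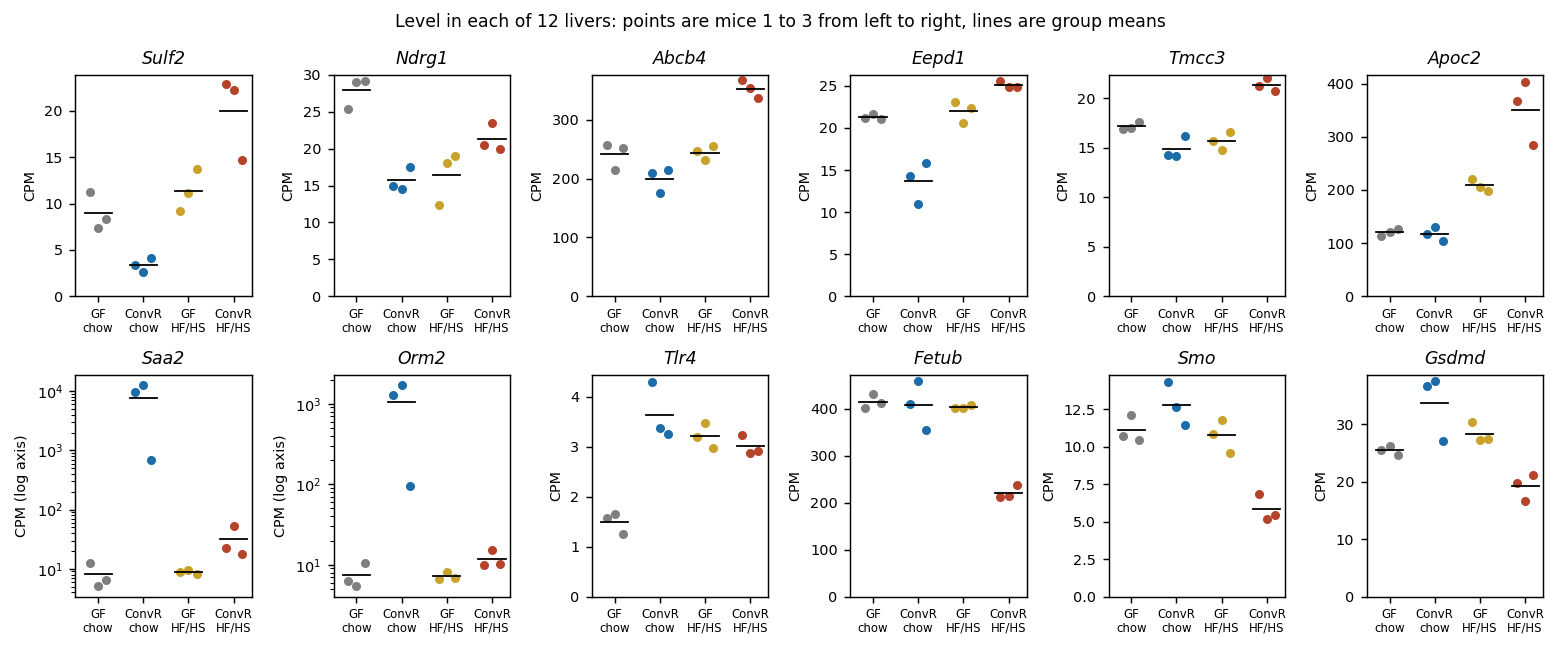
CPM of 12 of the 16 genes with the smallest interaction p in each direction, with the 4 groups on the x axis, points for mice 1 to 3 and lines for group means. Saa2 and Orm2 are on a log axis and the rest on axes from 0; ConvR livers of Sulf2 and Ndrg1 lie below GF on chow and above GF on HF/HS, and ConvR HF/HS livers are the lowest for Fetub, Smo and Gsdmd.

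The 8 genes with the smallest p among those with a negative interaction were Saa2, Orm2, Fetub, Smo, Gsdmd, Utp14b, Tlr4 and Saa1. Fetub, Utp14b, Smo and Gsdmd were called lower in ConvR livers on HF/HS and were not called on chow. Fetub encodes fetuin-B, a secreted protease inhibitor made by hepatocytes. It stood at 401, 432 and 412 CPM in GF and 411, 460 and 354 CPM in ConvR livers on chow, and at 401, 401 and 408 against 212, 214 and 237 CPM on HF/HS. Only the ConvR HF/HS group was set apart; the other 3 groups overlapped. Fetub fell on HF/HS by 0.87 on the log2 scale (SE 0.10, adjusted p = 0.0016), a call kept in all 12 fits that left out 1 library, against -0.02 ± 0.10 on chow. Its interaction was -0.85 ± 0.14 (adjusted p = 0.0503). Utp14b, which serves ribosomal RNA processing, fell on HF/HS by 1.19 (SE 0.12, adjusted p = 9.0e-04), from 10.58, 11.25 and 11 CPM in GF to 5.49, 4.65 and 4.23 CPM in ConvR livers, and was likewise called in all 12 fits. On chow it was 8.95, 8.40 and 9.62 CPM against 7.97, 7.47 and 8.56 CPM, which overlapped, and its interaction was -1.02 ± 0.18.

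Smo, the signal transducer of the Hedgehog pathway, stood at 10.7, 12.1 and 10.4 CPM in GF and 14.4, 12.7 and 11.5 CPM in ConvR livers on chow, and at 10.9, 11.8 and 9.61 against 6.826, 5.195 and 5.459 CPM on HF/HS. Gsdmd encodes gasdermin D, the pore-forming protein of pyroptosis, and stood at 25.5, 26.3 and 24.7 against 36.7, 37.6 and 27.1 CPM on chow and at 30.5, 27.2 and 27.4 against 19.8, 16.6 and 21.2 CPM on HF/HS. For Gsdmd the ConvR livers lay above all GF livers on chow and below all of them on HF/HS. On HF/HS Smo fell by 0.88 (SE 0.13, adjusted p = 0.00615) and Gsdmd fell by 0.56 (SE 0.12, adjusted p = 0.0305). The Smo call was lost without GF HF/HS mouse 2 and the Gsdmd call without any 1 of the GF HF/HS mice or of ConvR HF/HS mice 1 and 2, with ranges of -1.01 to -0.80 and -0.64 to -0.46. Their interactions were -1.09 ± 0.18 and -0.97 ± 0.17, each with an adjusted p of 0.0503. Chosen after their values were seen, Slc39a4, a zinc importer, and Enho, which encodes the secreted peptide adropin, were also lower in ConvR livers on HF/HS. Slc39a4 stood at 44.6, 47.8 and 50.4 against 42.5, 36.8 and 55.1 CPM on chow and at 53.9, 46.2 and 52.2 against 18.7, 23.8 and 11.3 CPM on HF/HS. Enho stood at 38.8, 27.8 and 18.8 against 38.4, 52.8 and 28.2 CPM on chow and at 5.11, 4.10 and 4.95 against 1.47, 0.841 and 1.96 CPM on HF/HS. For Enho the GF livers on HF/HS also lay below all 6 chow livers. Slc39a4 fell by 1.50 and Enho by 1.71 there (adjusted p = 0.00369 and 0.0344), the second not called without any 1 GF HF/HS mouse or ConvR HF/HS mouse 1 or 2 (range -2.01 to -1.46). Interactions were -1.41 ± 0.28 and -2.20 ± 0.46.

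Tlr4 encodes the receptor for bacterial lipopolysaccharide and differed on chow. It stood at 1.58, 1.66 and 1.26 CPM in GF and 4.29, 3.38 and 3.26 CPM in ConvR livers on chow, and at 3.19, 3.47 and 2.97 against 3.24, 2.87 and 2.91 CPM on HF/HS. The GF chow livers were the lowest 3 of the 12. The ConvR chow livers lay above the ConvR HF/HS livers, narrowly at 3.26 against 3.24 CPM, and the GF HF/HS livers overlapped both groups. Tlr4 rose with the microbiota on chow by 1.29 ± 0.18 on the log2 scale (adjusted p = 0.00351), called in all 12 fits that left out 1 library, and differed by -0.09 ± 0.16 on HF/HS. Its interaction was -1.38 ± 0.24 with all libraries and -1.22 ± 0.28 without ConvR chow mice 1 and 2. Of the 24 tested sensors of microbes and their adaptors, 6 were higher on chow (Tlr4, Tlr2, Irak3, Lbp, Ticam1 and Irak4), against 2.55% of all genes. On HF/HS 0 of the 24 were called, against 1.62% of all genes. The list's median interaction was -0.32, with 2 members higher and 6 lower at p below 0.05, but 0.095 with 1 and 1 without ConvR chow mice 1 and 2, and 0.03 on log2(TPM + 1), which is -0.24 relative to the shift of all genes on that scale. With 1 library left out the median lay between -0.47 (without GF chow mouse 3) and -0.14 (without ConvR chow mouse 2). Tlr2, the receptor for bacterial lipopeptides, stood at 15.3, 30.7 and 4.64 CPM in ConvR chow livers and between 2.12 and 4.41 CPM in the other 9.

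The 16 genes above kept the sign of their interaction under all 25 other settings. They were chosen for the smallest p in these same libraries, so kept signs and calls were largely built into the choice. Over all genes, DESeq2 called 109 (0.881%), limma-voom with sample weights 286 (2.31%) and log2(TPM + 1) 1192 of 12377. The fit without ConvR chow mouse 3 called 436 genes (3.47%). DESeq2, limma-voom with sample weights, limma-trend on log2(TPM + 1) and the fit without ConvR chow mouse 3 each called all 16, a filter at a minimum count of 50 called 10 (against 11 of all genes, 0.105%, with 0.0383% higher and 0.067% lower), and limma-voom, the fit on the 12 libraries alone and the fit without ConvR chow mice 1 and 2 called 0. Without those mice Sulf2 had an interaction of 1.92 ± 0.48, Abcb4 of 0.70 ± 0.15, Apoc2 of 0.97 ± 0.21, Fetub of -0.64 ± 0.13 and Utp14b of -1.12 ± 0.22. The scaling of the libraries moved all genes together: the median interaction of the 12377 genes was 0.00 with TMM factors, 0.22 with no normalization factors and 0.27 on log2(TPM + 1). TMM factors were 1.053 to 1.133 in the ConvR HF/HS livers and 0.908 to 0.986 in the other 9.

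**Figure D3:**
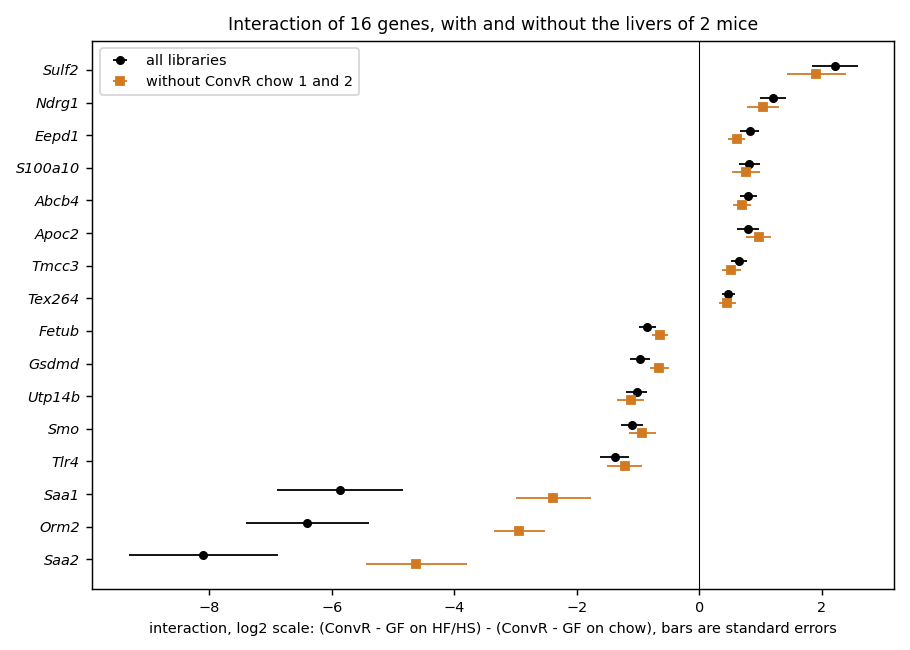
Interaction on the log2 scale of 16 genes with bars of 1 standard error, from all libraries (black circles) and without ConvR chow mice 1 and 2 (orange squares). Saa2 moves from -8.10 to -4.62 and Orm2 from -6.40 to -2.94, while Sulf2 moves from 2.22 to 1.92.

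Acute phase genes had large negative interactions. They encode the secreted hepatocyte proteins of inflammation. The windows around the starts of Saa1, Saa2, Orm2 and Lcn2 are shown because these genes stood high in the same livers. They are RefSeq sequences of build GRCm38.p6, 5′ to 3′ on the gene's strand, from 250 bases before to 50 bases from the start on: Saa1 at chr7:46742931-46743230 (minus strand), Saa2 at chr7:46751583-46751882 (plus strand), Orm2 at chr4:63362199-63362498 (plus strand) and Lcn2 at chr2:32387690-32387989 (minus strand). Capitals mark matches to TTGCNNAA, a C/EBP type motif, on either strand.
Saa1: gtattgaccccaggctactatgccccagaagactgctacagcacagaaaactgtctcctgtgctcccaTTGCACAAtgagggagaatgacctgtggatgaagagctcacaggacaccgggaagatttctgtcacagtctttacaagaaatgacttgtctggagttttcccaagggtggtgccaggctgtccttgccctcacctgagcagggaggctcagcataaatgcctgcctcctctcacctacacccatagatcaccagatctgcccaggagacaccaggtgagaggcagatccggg
Saa2: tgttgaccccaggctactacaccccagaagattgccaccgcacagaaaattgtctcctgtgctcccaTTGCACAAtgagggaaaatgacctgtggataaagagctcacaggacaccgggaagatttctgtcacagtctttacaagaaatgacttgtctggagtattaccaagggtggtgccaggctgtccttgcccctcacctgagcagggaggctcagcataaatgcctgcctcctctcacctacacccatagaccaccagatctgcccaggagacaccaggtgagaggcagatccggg
Orm2: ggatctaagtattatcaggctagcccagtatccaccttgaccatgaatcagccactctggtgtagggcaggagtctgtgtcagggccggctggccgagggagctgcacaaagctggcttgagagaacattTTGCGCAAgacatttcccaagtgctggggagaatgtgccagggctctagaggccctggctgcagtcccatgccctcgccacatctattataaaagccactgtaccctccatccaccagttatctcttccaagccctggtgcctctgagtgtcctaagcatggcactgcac
Lcn2: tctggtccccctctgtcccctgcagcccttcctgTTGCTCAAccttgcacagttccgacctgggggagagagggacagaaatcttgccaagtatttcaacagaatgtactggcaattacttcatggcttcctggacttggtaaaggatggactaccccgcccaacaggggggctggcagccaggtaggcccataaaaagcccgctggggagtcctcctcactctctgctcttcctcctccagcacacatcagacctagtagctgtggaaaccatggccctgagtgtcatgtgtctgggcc
The Saa1 and Saa2 windows, which face away from each other on chromosome 7, shared 95.3% of 301 aligned positions, and the match lay 182 and 183 bases before their starts. Saa1 with Saa3, another member of the family, shared 51.3%. RSEM divides reads between genes with near-identical transcripts. The transcripts of Saa1 and Saa2, or of the Orm genes, were not compared here, and the split of reads within each set is uncertain. Of the 32 acute phase genes listed, 25 had a window, and 15 of these held TTGCNNAA on either strand against 10.8% of 32851 windows of 300 bases. The STAT motif TTCNNNGAA was in 7 of the 25 against 8.3% of windows, and an NF-kB motif in 0 of the 25 against 1.2%. Neither of these had a match in the 4 windows shown, and the C/EBP type letters in the Orm2 window read the same on both strands. A match is a description of letters and not a binding site.

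Saa2, a serum amyloid A protein carried on high-density lipoprotein, stood at 12.6, 5.03 and 6.48 CPM in GF and 9887, 12790 and 695 CPM in ConvR livers on chow. On HF/HS it stood at 8.81, 9.56 and 8.03 CPM in GF and 22.7, 53.8 and 18.1 CPM in ConvR livers. ConvR livers lay above all GF livers on either diet, and ConvR chow mouse 3 lay between the other 2 ConvR chow mice and every other liver. Saa2 rose on chow by 9.93 ± 1.09 on the log2 scale (adjusted p = 7.4e-04) and differed on HF/HS by 1.84 ± 0.80 (adjusted p = 0.286). The interaction was -8.10 ± 1.22 (adjusted p = 0.0503) and, without ConvR chow mice 1 and 2, -4.62 ± 0.83. Orm2, an orosomucoid, stood at 6.33, 5.37 and 10.5 against 1304, 1717 and 94.1 CPM on chow and at 6.63, 8.15 and 6.75 against 9.89, 15.2 and 10.3 CPM on HF/HS. Lcn2, which encodes lipocalin-2, a protein that binds bacterial siderophores, stood at 1.93, 1.54 and 2.85 against 1073, 1453 and 75.2 CPM and at 4.35, 2.63 and 2.39 against 11.5, 20.1 and 7.51 CPM. For both, the same ConvR chow mouse was nearest to the GF livers, and the ConvR HF/HS livers were called neither higher nor lower than GF. Saa1, Orm2, Lcn2 and, chosen after its values were seen, Saa3 rose on chow by 7.08, 7.12, 8.66 and 7.47, each called in all 12 fits that left out 1 library. Without ConvR chow mice 1 and 2 the log2 fold changes were 3.59, 3.65, 5.13 and 4.26. These values rest on ConvR chow mouse 3 alone.

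Of the 32 acute phase genes tested, 20 rose on chow, against 2.55% of all genes, and 0 fell. On HF/HS 1 of the 32 rose, against 0.881% of all genes, and 0 fell. For the interaction 27 were lower and 1 was higher at p below 0.05, with a median of -1.79 against 0.00 for all genes. Without ConvR chow mice 1 and 2 the median was -0.20, with 7 lower and 1 higher, and the chow median went from 1.82 to -0.03. With 1 library left out at a time the median interaction stayed between -2.22 and -1.36. By mouse, the list's mean log2 CPM relative to the GF chow mean was 2.91, 3.33 and 0.86 in ConvR chow livers, and between -0.32 and 0.37 in the other 9. Apcs, the serum amyloid P component and a member chosen after its values were seen, showed the same split: 423, 623 and 77.1 CPM in ConvR chow livers and 32.4 to 62.1 CPM elsewhere. Its chow difference of 3.01 was 0.73 without ConvR chow mice 1 and 2. The 1 member with a positive interaction was Hamp, which encodes the iron hormone hepcidin and was also chosen after its values were seen. Hamp stood at 168, 276 and 178 against 287, 638 and 839 CPM on chow and at 15.3, 4.41 and 2.97 against 217, 96.8 and 260 CPM on HF/HS. It rose on HF/HS by 4.65 ± 0.60 (adjusted p = 0.00321), called in all 12 fits that left out 1 library, and differed by 1.50 ± 0.51 on chow (adjusted p = 0.0984). Its interaction was 3.15 ± 0.75 (adjusted p = 0.171).

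The neutrophil transcripts that passed the filter stood high in the same livers as the acute phase genes. The 6 of 12 neutrophil markers that passed the filter summed to 55.3, 69.9 and 11.8 CPM in ConvR chow livers and to between 7.04 and 18 CPM in the other 9. A marker could pass through its level in the ConvR chow livers alone, so the sum and the list's median can lean towards that group. In bulk liver, more cells of a type and more RNA per cell cannot be told apart. The list's median interaction was -1.40 (0 of 6 higher and 2 lower at p below 0.05) and 0.87 without ConvR chow mice 1 and 2. It was -2.23 without GF chow mouse 1 and -0.93 without ConvR chow mouse 2. Prtn3, a neutrophil granule protease, stood at 21.0, 21.9 and 1.57 CPM in ConvR chow livers and at 1.11 CPM or less elsewhere. Il1r1 and Osmr, receptors for interleukin-1 and oncostatin M, were the 2 of 21 genes of IL-6 and STAT3 signalling called on chow. Both were higher, as were 2.55% of all genes. Il1r1 stood at 181, 173 and 33.8 CPM in ConvR chow livers and at 19.7 to 34.9 CPM elsewhere. Its interaction of -1.99 ± 0.57 was -0.06 ± 0.23 without ConvR chow mice 1 and 2, and that of Osmr went from -1.72 ± 0.56 to 0.00 ± 0.30. The call of Il1r1 on chow was lost without either of those mice, and that of Osmr also without GF chow mouse 1 or 3 (ranges 1.80 to 2.58 and 1.39 to 2.25). The part of the neutrophil transcripts in these results was not tested.

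**Figure D4:**
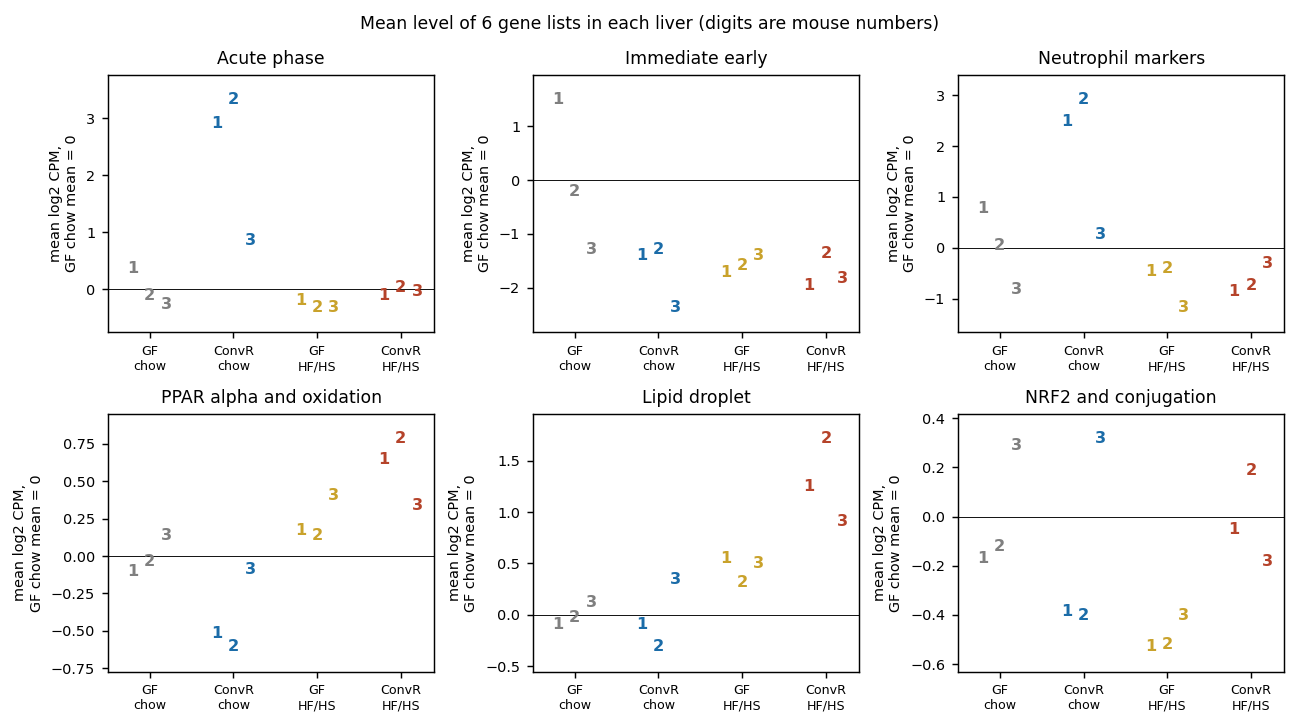
Mean log2 CPM of the genes of 6 lists in each liver, relative to the mean of the GF chow livers, with the 4 groups on the x axis and digits for the mouse numbers. ConvR chow mice 1 and 2 lie at 2.91 and 3.33 for acute phase genes with mouse 3 at 0.86, GF chow mouse 1 lies at 1.50 for immediate early genes, and the ConvR HF/HS livers hold the 3 highest values for lipid droplet genes.

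Immediate early genes, which encode transcription factors and phosphatases made within minutes of a stimulus, had the opposite sign. Of 26 tested, 10 fell with the microbiota on chow, against 2.17% of all genes, and 0 rose. On HF/HS 0 of the 26 were called, against 1.62% of all genes. For the interaction 14 were higher and 0 lower at p below 0.05, with a median of 1.47. Egr1, a zinc finger factor, stood at 302, 109 and 54.3 CPM in GF and 10.2, 9.64 and 5.31 CPM in ConvR livers on chow, and at 10.1, 7.99 and 8.03 against 4.277, 7.372 and 4.504 CPM on HF/HS. Fos stood at 129, 28.9 and 5.95 against 2.91, 1.45 and 0.302 CPM on chow and at 1.37, 2.16 and 1.34 against 0.994, 2.62 and 1.05 CPM on HF/HS. The 3 GF chow livers were thus far apart from each other and all above the other 9. On chow Egr1 fell by 4.20 (SE 0.60, adjusted p = 0.00437), called in all 12 fits that left out 1 library, and Fos fell by 5.10 (SE 0.93, adjusted p = 0.0147), not called without ConvR chow mouse 1 or 2 (range -5.95 to -3.44). Their interactions were 3.50 ± 0.83 and 5.01 ± 1.45. Without GF chow mouse 1 the list's median interaction was 0.71 with 8 higher, and without ConvR chow mouse 3 it was 1.37, also with 8; without ConvR HF/HS mouse 2 it was 1.32 with 9. The labels give no time of day or handling for single mice.

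Genes of fatty acid oxidation, ketogenesis and PPAR alpha stood lower on chow and higher on HF/HS in ConvR livers by their medians. Of 36 tested, 35 had a positive interaction, against 6165 of all 12377 genes. At p below 0.05, 22 were higher, against 6.22% of all genes, and 0 were lower. The median was -0.35 on chow, 0.22 on HF/HS and 0.57 for the interaction. On chow it was -0.097 without ConvR chow mice 1 and 2. By mouse, the list's mean log2 CPM relative to the GF chow mean was -0.517, -0.606 and -0.089 in ConvR chow livers. GF chow livers stood at -0.105, -0.034 and 0.138. On HF/HS the values were 0.169, 0.136 and 0.406 in GF and 0.645, 0.784 and 0.34 in ConvR livers. ConvR mouse 3 thus lay within the range of the GF livers on each diet. On either diet few single genes were called: Ucp2 rose on both, Bdh1 fell on chow, and the other 34 were not called on either. Decr1, an enzyme for unsaturated fatty acids in mitochondria, stood at 196, 163 and 192 against 128, 120 and 170 CPM on chow and at 178, 173 and 190 against 225.9, 226.9 and 193.7 CPM on HF/HS. On each diet ConvR mouse 3 was the one nearest to the GF livers. Interactions were 0.66 ± 0.17 for Decr1 and 0.47 ± 0.13 for Cpt2, the inner carnitine palmitoyltransferase, with adjusted p of 0.205 and 0.215. Cyp4a14, an omega-hydroxylase induced through PPAR alpha whose counts may be shared with the close copy Cyp4a10, stood at 97.1, 184 and 247 against 48.7, 31.3 and 229 CPM on chow and at 196, 254 and 553 against 811, 937 and 564 CPM on HF/HS, with an interaction of 1.98 ± 0.92. That value was 0.83 ± 0.84 without ConvR chow mice 1 and 2 and 3.34 without ConvR chow mouse 3, and that of Decr1 was 0.37 ± 0.16 without ConvR chow mice 1 and 2. Without ConvR chow mice 1 and 2 the list's median interaction was 0.36, with 7 of 36 higher. It lay between 0.50 and 0.61 with 1 library left out at a time, and the count of 22 was 13 without ConvR chow mouse 2 and 14 without ConvR HF/HS mouse 2.

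Genes of lipid droplets, PPAR gamma and fatty acid uptake rose with the microbiota on HF/HS in 5 of 21 cases, Plin4, Plin5, Cidec, Mogat1 and Mgll, and fell in 0. On chow 1 rose, Plin4, and 1 fell, Lpl (2.55% and 2.17% of all genes, against 0.881% higher on HF/HS). The median was 0.02 on chow, 0.69 on HF/HS and 0.64 for the interaction, for which 9 were higher and 0 lower at p below 0.05. Cidec, which fuses lipid droplets in fatty liver, was chosen after its values were seen; it stood at 1.72, 0.743 and 0.967 against 1.05, 0.723 and 3.56 CPM on chow and at 2.63, 1.37 and 1.40 against 26.4, 69.5 and 9.01 CPM on HF/HS. Mgll, the lipase that splits monoacylglycerol, stood at 154, 151 and 179 against 149, 158 and 185 CPM on chow and at 193, 154 and 183 against 338, 331 and 240 CPM on HF/HS. For both genes the groups overlapped on chow and did not on HF/HS. Cidec rose on HF/HS by 4.26 ± 0.66 (adjusted p = 0.00656) and Mgll by 0.78 ± 0.14 (adjusted p = 0.0148), with interactions of 3.60 ± 1.11 and 0.76 ± 0.20. The call of Cidec was lost without GF HF/HS mouse 2 (range 3.29 to 4.72), and that of Mgll without GF HF/HS mouse 2 or 3 or ConvR HF/HS mouse 2 (range 0.69 to 0.92). Plin2, the coat protein of most hepatocyte lipid droplets, and Cd36, a fatty acid transporter, were called on neither diet: Plin2 stood at 524, 455 and 506 against 342, 371 and 483 CPM and at 674, 507 and 563 against 784, 956 and 687 CPM, with an interaction of 0.79 ± 0.23, and Cd36 stood at 90.3, 82.0 and 106 against 210, 295 and 122.5 CPM on HF/HS, with 1.22 ± 0.41. The Plin2 interaction was 0.51 ± 0.26 without ConvR chow mice 1 and 2. Without ConvR chow mice 1 and 2 the list's median interaction was 0.37, with 4 higher, and without ConvR HF/HS mouse 2 it was 0.34, with 5 higher and 1 lower. Without GF chow mouse 3 or GF HF/HS mouse 2 the count was also 5.

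Among 23 apolipoproteins and lipoprotein genes, Apoc2 and Apoa4 rose and Apom fell on HF/HS, and Abcg1 rose on chow. The same calls were made for 0.881%, 0.735% and 2.55% of all genes. Apoa4, a triglyceride-responsive apolipoprotein chosen after its values were seen, stood at 61.5, 36.5 and 33.5 against 87.8, 120 and 74.5 CPM on chow and at 436, 362 and 311 against 1665, 3581 and 1359 CPM on HF/HS. The groups did not overlap on either diet. The HF/HS difference was 2.57 ± 0.33 (adjusted p = 0.00321), called in all 12 fits that left out 1 library, the chow difference 1.11 ± 0.32 (adjusted p = 0.0628), and the interaction 1.47 ± 0.45, or 0.92 without ConvR HF/HS mouse 2. Apom, the carrier of sphingosine-1-phosphate, stood at 213, 201 and 194 against 202, 242 and 185 CPM on chow and at 169.5, 175 and 167 against 108, 92.2 and 134 CPM on HF/HS. It fell there by 0.62 (SE 0.13, adjusted p = 0.0292), a call lost without any 1 GF HF/HS mouse or ConvR HF/HS mouse 1 or 2 (range -0.77 to -0.49), and its interaction was -0.67 ± 0.18. The median interaction of the list was 0.075, and between 0.02 (without GF HF/HS mouse 2) and 0.20 (without ConvR chow mouse 3) with 1 library left out.

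**Figure D5:**
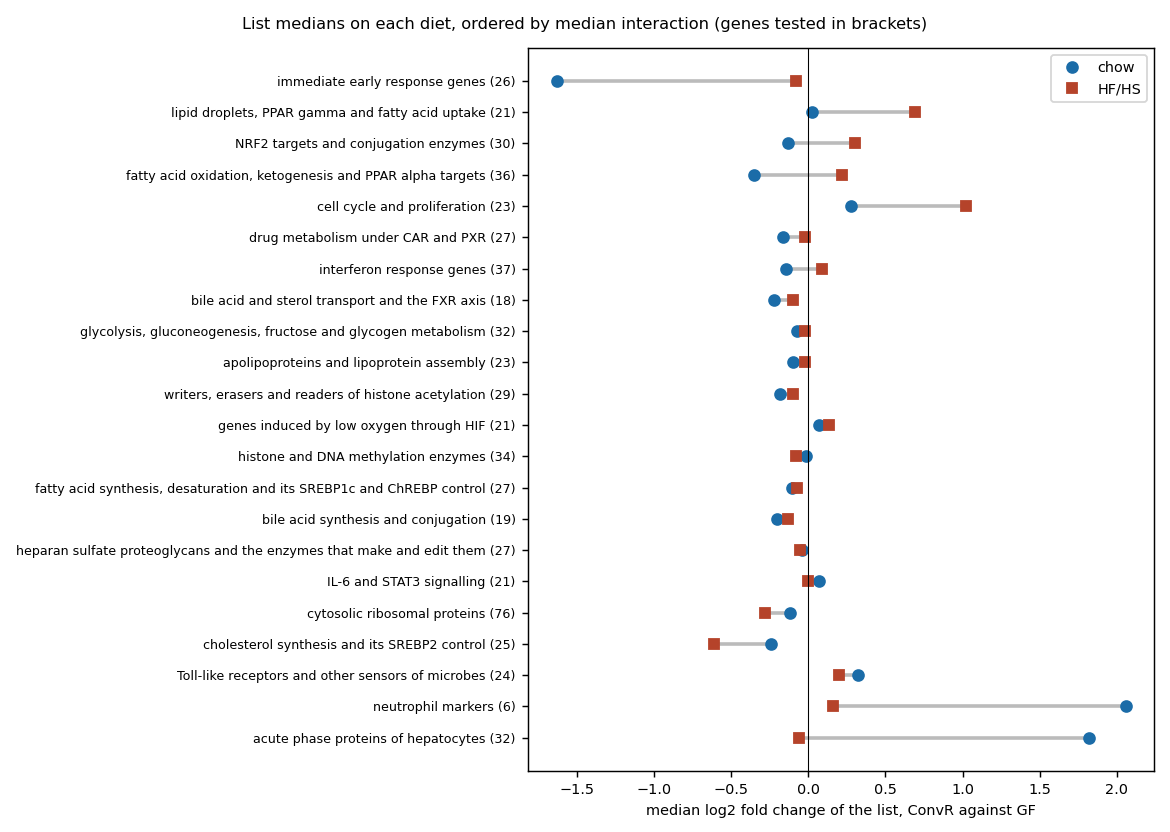
Median log2 fold change of ConvR against GF livers for 22 gene lists on chow (blue circles) and HF/HS (red squares), 1 list per line with the number of genes tested in brackets, ordered by median interaction. Acute phase genes are at 1.82 on chow and -0.06 on HF/HS, immediate early genes at -1.63 and -0.08, and PPAR alpha genes at -0.35 and 0.22.

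Cyp3a11, the main drug-metabolizing enzyme under the xenobiotic receptor PXR in mouse liver, was called on chow and not on HF/HS. It stood at 355, 381 and 762 CPM in GF and 1505, 1941 and 3680 CPM in ConvR livers on chow, and at 826, 1004 and 996 against 815, 1146 and 735 CPM on HF/HS. ConvR chow livers were the highest 3 of the 12, and the HF/HS groups overlapped. Cyp3a11 rose on chow by 2.25 ± 0.33 (adjusted p = 0.00592), called in all 12 fits that left out 1 library. The HF/HS difference was -0.07 ± 0.32, and the interaction was -2.32 ± 0.46 (adjusted p = 0.0974). Without ConvR chow mice 1 and 2 the chow difference was 2.88 and the interaction -2.95. Both values then rest on ConvR chow mouse 3, the highest of the 12 livers at 3680 CPM. Reads of Cyp3a genes may be shared between close copies. Of 27 genes of drug metabolism under CAR and PXR, 2 rose (Cyp3a11 and Cyp3a13) and 1 fell on chow, and 1 rose and 1 fell on HF/HS. The shares of all genes were 2.55%, 2.17%, 0.881% and 0.735% in that order. The median interaction of the 27 was 0.25. It was -0.02 without ConvR chow mouse 2, 0.001 without GF chow mouse 3 and 0.04 without ConvR chow mice 1 and 2.

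NRF2 targets and conjugation enzymes, which detoxify electrophiles, had 3 of 30 members higher on HF/HS (Ephx1, Ugdh and Ugt1a9) and 0 lower, and 2 higher and 2 lower on chow. Of all genes, 0.881% were higher on HF/HS, and 2.55% higher and 2.17% lower on chow. Ephx1, microsomal epoxide hydrolase, stood at 271, 299 and 341 against 203, 216 and 424 CPM on chow, where ConvR mouse 3 was the highest and ConvR mice 1 and 2 the lowest. On HF/HS it stood at 137, 146 and 155 against 311, 360 and 337 CPM and rose by 1.204 ± 0.22 (adjusted p = 0.0148), a call lost without any 1 GF HF/HS mouse or ConvR HF/HS mouse 2 (range 1.16 to 1.26). Its interaction was 1.32 ± 0.30 and, without ConvR chow mice 1 and 2, 0.72 ± 0.19. The list's median interaction was 0.59, with 9 higher and 0 lower at p below 0.05, against 0.06 with 2 higher and 1 lower without those mice. Other libraries moved it too: it was 0.31 without GF chow mouse 3 and 0.35 without ConvR HF/HS mouse 2, and without ConvR chow mouse 3 it was 0.65, with 19 higher and 2 lower.

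Bile acid genes moved in both directions. Of 19 genes of synthesis and conjugation, 3 rose on chow (Cyp39a1, Acnat2 and Csad), against 2.55% of all genes. On HF/HS 2 rose (Csad and Cyp39a1), against 0.881%, and 0 fell on either diet. The median interaction of the 19 was -0.10 (0.22 on log2(TPM + 1), or -0.05 relative to all genes, and 0.14 without ConvR chow mouse 3). Cyp39a1, the 24-hydroxycholesterol 7-alpha-hydroxylase, stood at 2.27, 3.49 and 1.31 against 11.1, 10.3 and 9.41 CPM on chow and at 12.7, 12.9 and 11.4 against 23.7, 24.7 and 18.2 CPM on HF/HS. It rose by 2.14 ± 0.23 on chow and 0.85 ± 0.19 on HF/HS (adjusted p = 7.4e-04 and 0.043), and its interaction was -1.29 ± 0.30 (adjusted p = 0.171). The HF/HS call was lost without any 1 GF HF/HS mouse, ConvR HF/HS mouse 1 or 2, or ConvR chow mouse 1 or 2 (range 0.77 to 0.97). Cyp7a1, which starts the classical route from cholesterol to bile acids, stood at 20.0, 37.6 and 39.6 against 49.8, 38.0 and 74.7 CPM on chow and at 17.2, 25.1 and 20.3 against 12.4, 23.7 and 16.7 CPM on HF/HS, overlapping on both, with an interaction of -0.98 ± 0.42 (adjusted p = 0.357). Cyp8b1, the 12-alpha-hydroxylase, had an interaction of 0.77 ± 0.35 (adjusted p = 0.372), which was 0.36 without GF chow mouse 3. Among 18 genes of bile acid and sterol transport and the FXR axis, Abcg8, Klb and Abcc2 fell on chow, against 2.17% of all genes. Abcb4 rose on HF/HS, against 0.881%. The median interaction of the 18 was 0.12, or 0.06 without GF chow mouse 1 and 0.28 without ConvR chow mouse 2. Abcc3, a basolateral export pump, stood at 274, 276 and 268 against 165, 116 and 246 CPM on chow and at 187, 192 and 231 against 288, 359 and 236 CPM on HF/HS; its groups did not overlap on either diet, and it was called on neither diet. Its interaction was 1.17 ± 0.30 (adjusted p = 0.204), and 0.68 ± 0.25 without ConvR chow mice 1 and 2, whose livers had the 2 lowest levels.

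Cholesterol synthesis and its SREBP2 control had a median of -0.24 on chow and -0.61 on HF/HS. On HF/HS 2 of 25 genes fell, Lss and Dhcr7, against 0.735% of all genes. The median interaction was -0.27, with 0 higher and 2 lower at p below 0.05, and on log2(TPM + 1) it was 0.05, which is -0.22 relative to all genes. Without ConvR HF/HS mouse 2 it was -0.55 with 13 lower, without ConvR HF/HS mouse 1 -0.11 with 1 lower, and without ConvR chow mice 1 and 2 -0.41 with 2 lower. Dhcr7, which makes cholesterol from its last precursor, stood at 118, 102 and 88.7 against 50.2, 85.5 and 52.0 CPM on HF/HS and 116, 120 and 130 against 108, 128 and 109 CPM on chow; it fell on HF/HS by 0.72 (SE 0.17, adjusted p = 0.0478), a call kept in 4 of the 12 fits that left out 1 library (those without GF chow mouse 1 or 3, ConvR chow mouse 3 or ConvR HF/HS mouse 2). Of 27 genes of fatty acid synthesis, desaturation and its control, 0 were called on either diet (unadjusted interaction p below 0.05 in 1 higher and 2 lower, in 2 and 6 without ConvR HF/HS mouse 2, and in 4 and 1 without ConvR chow mouse 3). Fasn, fatty acid synthase, stood at 379, 375 and 303 against 365, 308 and 378 CPM on chow and at 799, 736 and 555 against 688, 948 and 439 CPM on HF/HS. The microbiota differences were -0.01 ± 0.24 on either diet, and the interaction was 0.00 ± 0.34. Scd1, the main desaturase, ran from 729 to 2211 CPM on chow and from 8053 to 25870 CPM on HF/HS, and its groups overlapped on HF/HS; the interaction was -0.81 ± 0.54, and -1.30 and -0.48 without ConvR HF/HS mice 2 and 3. Insig2, an inhibitor of SREBP processing, stood at 316, 280 and 413 against 209, 130 and 248 CPM on chow and at 460, 389 and 398 against 608, 503 and 365 CPM on HF/HS, with an interaction of 1.02 ± 0.31 (adjusted p = 0.23), or 0.68 ± 0.30 without ConvR chow mice 1 and 2. Insig1 had an interaction of -0.18 ± 0.21, or -0.51 ± 0.20 without those mice.

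In glucose metabolism 2 of 32 genes fell on chow, G6pc and Gckr, against 2.17% of all genes, and 0 were called on HF/HS. The median interaction of the 32 was 0.12, or 0.065 without GF chow mouse 1 and 0.063 without ConvR chow mice 1 and 2. At p below 0.05, 5 were higher and 0 lower, but 1 and 2 without ConvR HF/HS mouse 2. G6pc, the last enzyme of glucose release, stood at 1264, 561 and 351 against 162, 73.4 and 188 CPM on chow and at 753, 847 and 781 against 494, 444 and 530 CPM on HF/HS. ConvR livers lay below GF livers on both diets. G6pc fell on chow by 2.36 (SE 0.39, adjusted p = 0.0107), called in all 12 fits that left out 1 library, differed by -0.70 ± 0.38 on HF/HS, and had an interaction of 1.66 ± 0.53 (adjusted p = 0.248), which was 0.99 without GF chow mouse 1, the liver at 1264 CPM. Fgf21, the hormone of fasting and of sugar, stood at 0.241 to 1.03 CPM on chow and 2.10 to 8.36 CPM on HF/HS and had an interaction of 2.13 ± 0.81 at these low levels.

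Ribosomal protein genes fell with the microbiota on HF/HS in 10 of 76 cases, against 0.735% of all genes, and rose in 0. On chow 1 of the 76 fell, Rpl36, against 2.17% of all genes. The median was -0.12 on chow, -0.28 on HF/HS and -0.17 for the interaction, for which 21 were lower and 0 higher at p below 0.05. On log2(TPM + 1) the median interaction was 0.18, or -0.08 relative to all genes, with 0 lower and 5 higher. With no normalization factors 0 were lower and 2 higher. Over all genes 124 were lower and 4131 higher on log2(TPM + 1), and 223 and 2785 with no factors. Rps4x stood at 261, 271 and 281 against 280, 289 and 266 CPM on chow and at 242, 264 and 247 against 183, 194 and 206 CPM on HF/HS, and Rpl5 at 309, 276 and 279 against 274, 279 and 280 CPM and at 262, 279 and 267 against 203, 207 and 220 CPM. In both, the ConvR HF/HS livers were the lowest 3 of 12. They fell on HF/HS by 0.37 and 0.36 (each SE 0.08, adjusted p = 0.0305), calls lost without any 1 GF HF/HS mouse or ConvR HF/HS mouse 1 or 2 (ranges -0.41 to -0.32 and -0.40 to -0.33). The count of 21 was 35 without GF chow mouse 1 and 7, 8 and 11 without GF HF/HS mouse 2, ConvR HF/HS mouse 1 and GF chow mouse 2, and 14 without ConvR HF/HS mouse 2. It was 9 without ConvR chow mice 1 and 2, and the median was -0.09 without GF chow mouse 2. Ribosomal protein transcripts are short, and the part of the length trend named above in their levels was not tested. With that trend removed the median interaction was -0.24, with 31 lower.

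Cell cycle genes had a median of 0.28 on chow and 1.02 on HF/HS. On HF/HS 4 of 23 rose, Cdc20, Ccnd1, Mcm2 and Cdk1, against 0.881% of all genes, and 0 fell. Ccnd1, which encodes cyclin D1, stood at 18.6, 15.1 and 14.8 against 41.3, 36.5 and 23.5 CPM on HF/HS and at 19.8, 24.6 and 16.5 against 22.9, 16.5 and 29.5 CPM on chow. Groups overlapped on chow and not on HF/HS. By mouse, the list's mean log2 CPM relative to the GF chow mean was 1.076, 1.044 and 0.341 in ConvR HF/HS livers. GF HF/HS livers stood at 0.072, -0.064 and -0.042, and ConvR chow livers at 0.437, 0.584 and 0.375. ConvR HF/HS mouse 3 thus lay below all ConvR chow livers. Cdc20, chosen after its values were seen, had low levels of 0.304, 0.315 and 0.291 against 2.64, 2.18 and 0.955 CPM on HF/HS. Ccnd1 rose on HF/HS by 1.06 ± 0.22 (adjusted p = 0.0305), a call lost without any 1 GF HF/HS mouse or ConvR HF/HS mouse 1 or 2 (range 0.89 to 1.26), and the interaction was 0.88 ± 0.31, or 0.52 ± 0.34 without ConvR chow mice 1 and 2. The median interaction of the list was 0.26, with 3 higher and 0 lower at p below 0.05. It was 0.15, 0.16 and 0.17 without GF chow mouse 3, ConvR HF/HS mouse 1 and ConvR HF/HS mouse 2 and 0.49 without ConvR chow mice 1 and 2, and 6 were higher without GF chow mouse 1 or ConvR HF/HS mouse 3. Of 37 interferon response genes, 0 were called on either diet by edgeR (6 higher and 0 lower at an unadjusted interaction p below 0.05), and the median interaction was 0.23. Without GF chow mouse 3 the sign turned, to -0.20 with 2 higher and 4 lower, while without GF chow mice 1 and 2, each left out alone, it was 0.37 with 11 higher and 0.44 with 7 higher. Without ConvR chow mouse 3 it was 0.23 with 7 higher and 4 lower, and without ConvR chow mice 1 and 2 it was 0.47. Isg15, a ubiquitin-like interferon product, stood at 11.4, 8.63 and 15.1 against 6.984, 9.041 and 6.996 CPM on chow and at 7.95, 6.62 and 8.38 against 10.8, 8.71 and 9.24 CPM on HF/HS, with an interaction of 0.94 ± 0.27 (adjusted p = 0.215).

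The lists to which Sulf2 and Ndrg1 belong held few genes that moved with them on chow. Of 27 heparan sulfate proteoglycans and enzymes, Extl1 and Hs2st1 rose and Sulf2 fell on chow, and Hs3st3b1 and Sdc2 fell on HF/HS. The shares of all genes were 2.55%, 2.17% and 0.735%. In these 27 genes the median interaction was -0.15, with 2 higher and 5 lower at p below 0.05 (0.16, or -0.11 relative to all genes, on log2(TPM + 1)). Without ConvR chow mouse 1 there were 5 higher and 1 lower, without GF HF/HS mouse 3 there were 2 and 2, and without ConvR chow mice 1 and 2 the median turned to 0.11 with 4 higher and 1 lower. Hs2st1, the 2-O-sulfotransferase, stood at 8.81, 10.7 and 11.3 against 15.95, 13.56 and 12.97 CPM on chow and at 14.9, 13.7 and 14.2 against 12.9, 13.6 and 13.3 CPM on HF/HS; the chow call of 0.46 ± 0.11 (adjusted p = 0.0344) was lost without GF chow mouse 1, ConvR chow mouse 1 or 2, or GF HF/HS mouse 3 (range 0.36 to 0.53), and the interaction was -0.56 ± 0.15. Of 21 genes induced by low oxygen, 1 rose and 2 fell on chow, Ndrg1 among the latter, against 2.55% and 2.17% of all genes. On HF/HS 0 of the 21 were called, and the median interaction was -0.02 (0.32 on log2(TPM + 1), or 0.05 relative to all genes, and from -0.09 to 0.14 with 1 library left out). Enzymes that set or remove histone marks, for which microbial short-chain fatty acids are a known influence, lay near 0: the median interaction was 0.06 for 29 writers, erasers and readers of acetylation and -0.03 for 34 histone and DNA methylation enzymes, which on log2(TPM + 1) was 0.25, or -0.01 relative to all genes. With 1 library left out these medians lay between -0.06 and 0.11 and between -0.07 and 0.01. In each of these lists 0 genes were higher and 3 lower at p below 0.05 (for acetylation 3 and 1 without GF chow mouse 2), among them the deacetylase Sirt6 at -0.83 ± 0.25 (1.86, 2.00 and 1.89 against 3.02, 2.41 and 2.77 CPM on chow, 2.89, 2.37 and 1.98 against 2.12, 1.93 and 1.77 CPM on HF/HS). Of both lists, Setd7 on chow was the only call on either diet.

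The other way to read the design is to follow the genes called on one diet to the other, which uses different mice. Of the 316 genes higher on chow, 233 (73.7%) were also higher on HF/HS by sign, against 48.4% of all genes, and their median log2 fold change went from 0.92 on chow to 0.19. Of the 268 lower on chow, 215 (80.2%) were lower on HF/HS, against 51.6% of all genes, with medians of -0.59 and -0.19. In the other direction, 91 of 109 genes higher on HF/HS (83.5%, against 49.5%) and 80 of 91 lower (87.9%, against 50.5%) kept the sign on chow, with medians going from 0.94 to 0.32 and from -0.69 to -0.24. The list is chosen where its values are large, so that a smaller median on the other diet is built into the choice. Called on both diets in 1 direction were 22 higher and 20 lower genes, 6.96% and 7.46% of the chow calls and 20.2% and 22% of the HF/HS calls, and 0 genes were called in opposite directions.

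Among the 42 genes called on both diets were Plin4, a lipid droplet coat protein, Dmgdh, the mitochondrial dimethylglycine dehydrogenase, Spry4, a brake on growth factor signalling, and Gpx6, a glutathione peroxidase, all chosen after their values were seen. Plin4 stood at 2.75, 2.17 and 3.24 against 9.29, 11.7 and 7.72 CPM on chow and at 8.40, 5.15 and 5.18 against 26.0, 54.2 and 22.4 CPM on HF/HS, and its differences were 1.80 ± 0.34 and 2.45 ± 0.30. Dmgdh stood at 932, 809 and 874 against 381, 362 and 456 CPM and at 711, 722 and 780 against 547, 447 and 519 CPM, differing by -1.13 ± 0.11 and -0.55 ± 0.11. Spry4 differed by -1.85 ± 0.19 and -0.91 ± 0.18, and Gpx6 by -3.24 ± 0.43 and -2.49 ± 0.33. In each of the 4 the ConvR and GF livers did not overlap on either diet, which the choice among genes called on both makes likely. Their interactions were 0.64 ± 0.46, 0.58 ± 0.16, 0.94 ± 0.26 and 0.76 ± 0.57, with adjusted p of 0.588, 0.215, 0.215 and 0.609. Without ConvR HF/HS mouse 2 those of Plin4 and Gpx6 were 0.14 and 0.40. Gpx6 was called on both diets in all 12 fits that left out 1 library; the chow call of Plin4 was lost without ConvR chow mouse 1 or 2, and the HF/HS calls of Dmgdh and Spry4 without GF HF/HS mouse 2 or 3 or ConvR HF/HS mouse 2, besides GF HF/HS mouse 1 for Dmgdh and ConvR HF/HS mouse 3 for Spry4 (ranges 1.64 to 1.96, -0.60 to -0.46 and -1.06 to -0.83).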

How the data were processed

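Stranded mRNA libraries were made from 15 livers. Bowtie2, RSEM 1.2.23 and the mouse build mm9 are named in the submitters' processing notes; the strand setting and annotation version are not given in the sources used here. The deposited expected counts are unscaled RSEM estimates that need not be whole. Length and depth were taken into account within a library in the deposited TPM and FPKM; TPM served as an alternative and FPKM was not used in a test. Positions from the files were not used, and promoter windows came from RefSeq on GRCm38.p6. Genes in 2 libraries were listed in another order and were matched by symbol.

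Expected counts were rounded and fitted with edgeR 4.0.16 in R 4.3.3: filterByExpr at a minimum count of 10, TMM scaling, 1 mean for each of 5 groups, 10 residual degrees of freedom, and a quasi-likelihood F test, two-sided, with Benjamini-Hochberg adjustment over all 12377 genes and a threshold of 0.05. The biological coefficient of variation was 0.149. Standard errors (SE, the values after ±) were obtained by dividing the size of a log2 fold change by the root of its F statistic. The fit was tested on simulated data. Log2 CPM used a prior count of 2. Alternatives used DESeq2 1.42.0 and limma 3.58.1 (log2(TPM + 1) for TPM), other scalings and filters, the 12 libraries alone, a replicate block, a length trend removed by lowess with a span of 0.5, and libraries left out.

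Named genes were the 8 each way with the smallest interaction p at a mean of at least 2 CPM, passing over predicted genes, clones and small RNA genes, up to 2 members of each of 22 described lists with the smallest interaction p, and 16 fixed genes. The members, gene lists and rule were chosen with earlier results of these data known. Lists are described by counts and medians without a test.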

Additional observations from a re-analysis of the deposited data

How the results depend on the processing

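The interaction gave 0 called genes with DESeq2 size factors, limma-voom, the 12 libraries alone, the replicate block and the length trend removed. A bound of 1 on the log2 fold change was applied to the 0 reported calls, so its count of 0 was fixed in advance. It gave 6 (4 higher, 2 lower) with no normalization factors, 2 (0 and 2) with no filter, 11 (4 and 7) at a minimum count of 50, 109 (52 and 57) by DESeq2's Wald test, 286 (138 and 148) by limma-voom with sample weights, 1192 (1166 and 26) on log2(TPM + 1), and 0 to 436 with 1 library left out. The split on TPM came with a median of 0.27 over all genes. The chow count of 584 was 1047 by DESeq2 (470 higher and 577 lower), 381 by limma-voom, 1326 with sample weights, 937 on TPM (160 higher and 777 lower), 219 with the 12 libraries alone, 12 without ConvR chow mice 1 and 2, 14 without these and GF chow mouse 1, 200 at a log2 fold change of at least 1, and 46 to 1655 with 1 library left out. The HF/HS count of 200 was 765 with no normalization factors (715 higher and 50 lower), 506 by DESeq2, 1124 with sample weights, 791 on TPM (742 higher and 49 lower), 92 with the 12 libraries alone, 814 without ConvR chow mice 1 and 2 and GF chow mouse 1, 71 at a log2 fold change of at least 1, and 16 to 459 with 1 library left out. For chow-called genes followed on HF/HS, 76.7% kept their sign, and 71.6% on TPM. The causes were not tested. Of the named genes' interactions under alternatives, 1886 kept direction and side of the threshold, 215 kept direction and passed it, and 20 changed sign: on TPM, Prmt1 at 0.009, Suz12 at 0.067 and Rpl5 at 0.040; Fasn (reported value -0.003) at 0.014 with DESeq2 size factors and by DESeq2, 0.229 with no normalization factors, 0.002 with no filter, 0.026 with sample weights, 0.290 on TPM and 0.026 with the length trend removed, and from -0.303 to 0.239 with 1 library left out; and Insig1 at 0.041 with no normalization factors, 0.073 with sample weights and 0.194 on TPM, and from -0.321 to 0.017 with 1 library left out, the highest without ConvR chow mouse 3. Same-numbered mice of different groups did not deviate together (2 of 18 pairs over 0.1, r from -0.154 to 0.276, against -0.288 to 0.283 in the other 36 pairs, over 10574 genes), so the numbers do not pair the mice; with the replicate block the interaction had 0 calls, chow 402 and HF/HS 143. With 3 mice a group and totals of 14737578 to 21794811 expected counts, genes near 1 CPM rest on few reads.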
